A study of Mus musculus with 19 samples.

Results

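The Hedgehog pathway genes described here are 9 members, namely the ligand gene Shh, the receptor and ligand-binding genes Ptch1, Smo, Gas1 and Hhip, the cytoplasmic inhibitor gene Sufu and the transcription factor genes Gli1, Gli2 and Gli3. They were taken by symbol, as 9 of the 24421 gene rows of the 'HEART' count table and 9 of the 22769 genes with a locus of their own in the 'SHF' table. RNA had been sequenced from single mouse embryos at E9.5. The cKO embryos were Mesp1-Cre; Chd7 fl/fl and control embryos were Mesp1-Cre, so that all carried the Cre driver. 'HEART' is the heart tube with its outflow tract (4 cKO and 4 control samples) and 'SHF' is the distal pharyngeal apparatus, which holds second heart field progenitors (6 cKO and 5 control samples), and 8 of the 11 embryos gave both dissections. Mesp1-Cre is active in the early mesoderm that forms most of the heart and the core of the pharyngeal arches, so endoderm, ectoderm and neural crest in either dissection would keep Chd7. Both dissections are bulk tissue, in which fewer cells of a type and less RNA per cell cannot be told apart.

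Hedgehog ligands are secreted, lipid-modified proteins. PTCH1 inhibits the membrane protein SMO until a ligand binds it, and active SMO, working at the primary cilium, releases the GLI factors from SUFU and from processing into repressors. In the early embryo Shh is made by notochord, floor plate and pharyngeal endoderm, the responding mesoderm includes second heart field progenitors, and Ptch1, Gli1 and Hhip are themselves targets of the pathway that serve as its usual readouts.

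The 'HEART' samples held 8640839 to 15030099 reads counted to genes, and levels are given below as CPM, that is counts scaled to library size. Chd7, the deleted gene (chromosome 4, 8690406 to 8867659, GRCm38), had 35.6 ± 10.7 CPM in cKO and 232 ± 7.57 CPM in control (SD, n = 4 each), and every library stood on the side its label gives. Of 12694 genes tested between genotypes by edgeR's quasi-likelihood test, 817 passed a Benjamini-Hochberg adjusted p of 0.1, or 6.44%, with 446 higher in cKO (3.51%). The libraries of the genotypes did not overlap for 10.2% of genes. Cardiomyocyte marker genes summed to 38696 to 42681 CPM in cKO and 39835 to 45058 CPM in control, so the defining genes of the labelled tissue were present. The 'SHF' table held 1 FPKM value per genotype (reads scaled to gene length and library depth), so there is no spread between samples, depth per sample is unknown, and no test was made.

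In 'HEART' the GLI factor gene Gli2 rose in cKO, and the other 7 members tested did not pass. Shh had too few reads to be tested. That is 1 of 8 members called (12.5%), against 6.44% of all genes. All 8 fitted log2 fold changes were above 0, with a median of 0.16, against 48.5% of all genes tested and a median of -0.0062. Those of Smo, Sufu, Hhip and Gas1 changed sign under at least 1 other setting, and the members' count of positive values was 6 to 8 of 8 over the other settings that tested 8.

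**Figure D1:**
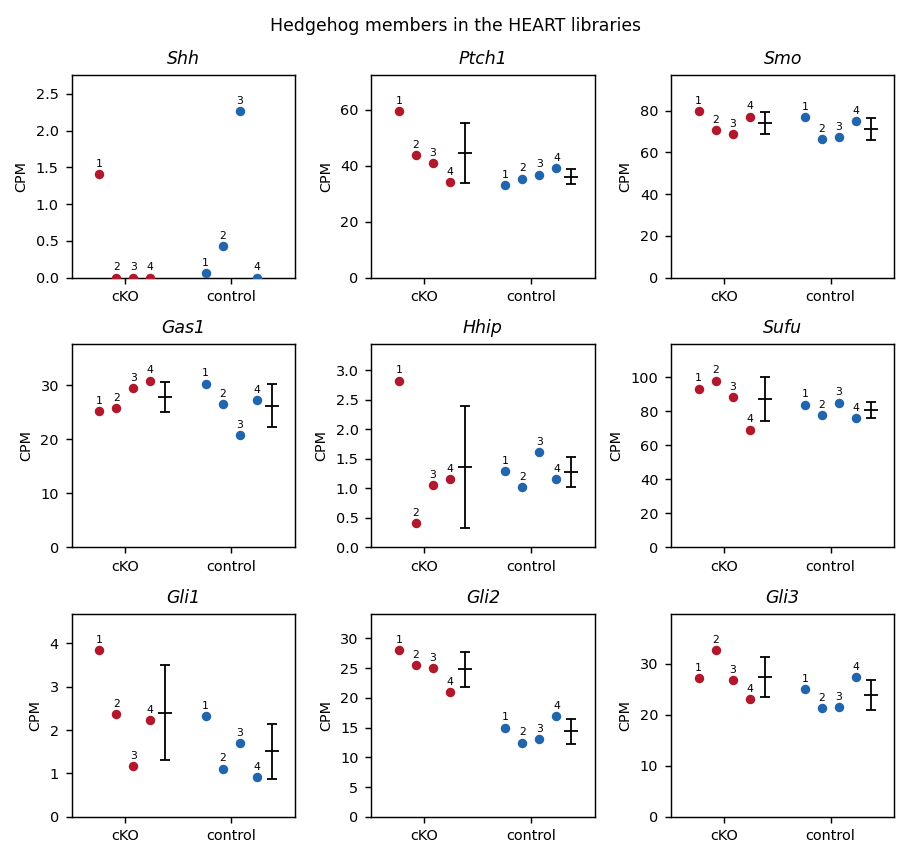
CPM of the 9 members in each 'HEART' library, cKO at the left and control at the right of each panel, with the library numbers above the points. Black bars give the mean ± SD of 4 libraries (not drawn for Shh). Gli2 is the only member whose genotypes do not overlap, at 20.9 to 28.0 CPM in cKO and 12.5 to 16.9 CPM in control, and cKO 1 holds the highest value of 5 members.

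Shh (chromosome 5, 28456815 to 28467256) encodes Sonic hedgehog, the ligand of the family used in pharynx and midline. Its counts were 18, 0, 0 and 0 reads in cKO 1 to 4, and 1, 5, 28 and 0 reads in control 1 to 4. The levels were 1.41 CPM in cKO 1 and 2.26 CPM in control 3, and at most 0.43 CPM in any other library. So all the cKO reads came from cKO 1 and 28 of the 34 control reads from control 3, and the genotypes overlapped. The sums were 18 reads in cKO (95% exact Poisson interval 10.7 to 28.4) and 34 reads in control (23.5 to 47.5), intervals that cover counting error only. In the libraries with no read, 3 counts would have been 0.23 to 0.35 CPM, and a lower level was not detectable at this depth. A gene antisense to Shh, 9530036O11Rik, overlaps it, and since no source used here gives the strand setting of the counting, reads of the pair cannot be separated.

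Some genes of epithelium and foregut endoderm, but not others, were high in the libraries with the most Shh reads. Foxa1, a forkhead factor of endoderm, had 3.29, 0, 0 and 0 CPM in cKO 1 to 4, and 0.13, 0, 1.37 and 0.16 CPM in control 1 to 4. Its highest libraries were the same cKO 1 and control 3 that were highest for Shh. Nkx2-1, a thyroid and lung endoderm factor, reached 1.13 CPM in control 3 and at most 0.12 CPM elsewhere. The summed level of Foxa1, Foxa2, Epcam, Cdh1 and Cldn6 was 20.1, 2.87, 2.11 and 0.54 CPM in cKO 1 to 4, and 1.81, 5.20, 6.14 and 18.8 CPM in control 1 to 4. Control 4 therefore combined a high sum of these genes with 0 Shh reads. The list of 15 pharyngeal endoderm markers, dominated by keratins and Dsp that cardiomyocytes also express, summed to 1907 to 2281 CPM in cKO and 1315 to 1735 CPM in control. Of the 9 list genes tested, 2 (Krt19 and Dsp) rose. Of all 15 list genes, 4 were highest in cKO 1 and 3 in control 4. Spink1 had 0.08 CPM in cKO 1 and 0.48 CPM in control 3, each the lowest of its genotype. Sox17 was lowest of all libraries in control 3, at 2.18 CPM. Pax9 had 0.08 CPM in cKO 1 and 0 CPM in control 3. Of the 7 notochord and floor plate markers Noto was at 0 in all libraries and T was at most 0.24 CPM, and the list summed to 87.6 to 102 CPM in cKO and 91.0 to 119 CPM in control, nearly all of it from Ntn1 and Nog. The part of such cells in the Shh counts was not tested.

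**Figure D2:**
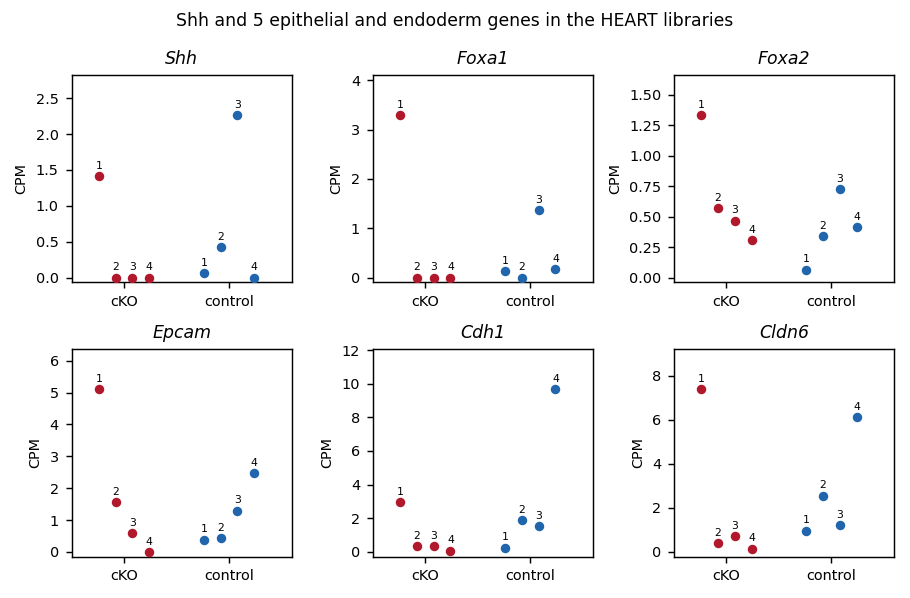
CPM of Shh and of 5 epithelial and endoderm genes in each 'HEART' library, cKO at the left and control at the right, with library numbers above the points. Shh and Foxa1 are highest in cKO 1 and control 3, while control 4 has 9.66 CPM of Cdh1 and 6.11 CPM of Cldn6 with 0 reads of Shh.

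Ptch1 (chromosome 13, 63508328 to 63573598) encodes the receptor, which is also a target of the pathway. It had 59.4, 43.7, 40.8 and 34.2 CPM in cKO 1 to 4, and 33.0, 35.4, 36.8 and 39.2 CPM in control 1 to 4. Libraries cKO 1 to 3 stood above every control and cKO 4 lay among the controls, so the genotypes overlapped. The log2 fold change of 0.31 ± 0.14 (SE, 95% interval 0.0046 to 0.61) did not pass, with an adjusted p of 0.290 by edgeR. This value rested on single libraries: it was 0.13 with an adjusted p of 0.651 without cKO 1, and 0.43 with an adjusted p of 0.0564 without cKO 4. With the summed level of the 5 epithelial genes as a covariate (chosen after seeing the data) it was 0.41 with an adjusted p of 0.0128. With the summed level of the 15 pharyngeal endoderm markers as a covariate it was 0.01 with an adjusted p of 0.998 by edgeR. With log2 Xist, a transcript of female cells, as a covariate it was 0.36 with an adjusted p of 0.599 by edgeR.

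Smo (chromosome 6, 29735503 to 29761365), the signal transducer that PTCH1 holds in check, was nearly level across libraries. It had 79.8, 70.6, 68.8 and 77.1 CPM in cKO 1 to 4, and 76.7, 66.4, 67.3 and 75.1 CPM in control 1 to 4. The ranges lay on top of each other, with a log2 fold change of 0.05 ± 0.08 (SE, 95% interval -0.11 to 0.22, adjusted p = 0.794 by edgeR). The interval leaves room for a difference of up to 0.22 on the log2 scale.

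Gas1 (chromosome 13, 60174405 to 60177365) encodes a membrane-anchored co-receptor that binds Shh. It had 25.3, 25.8, 29.4 and 30.8 CPM in cKO 1 to 4, and 30.3, 26.4, 20.8 and 27.2 CPM in control 1 to 4. Only control 3 lay below all cKO libraries. The log2 fold change was 0.08 ± 0.12 (SE, 95% interval -0.17 to 0.34, adjusted p = 0.789 by edgeR).

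Hhip (chromosome 8, 79965851 to 80058006) encodes a membrane protein that binds and sequesters the ligand, and it too is a pathway target. It was low, with 36, 5, 9 and 15 reads in cKO 1 to 4, and 20, 12, 20 and 14 reads in control 1 to 4. In CPM these were 2.82, 0.41, 1.05 and 1.15 in cKO, and 1.29, 1.02, 1.62 and 1.16 in control. Both the highest and the lowest library were cKO, and the log2 fold change of 0.11 ± 0.46 (SE, 95% interval -0.87 to 1.10) had an adjusted p of 0.932 by edgeR. Without cKO 1 it was -0.56 with an adjusted p of 0.618.

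Sufu (chromosome 19, 46396896 to 46488804) encodes the protein that binds the GLI factors in the cytoplasm. It had 93.3, 98.0, 88.4 and 69.1 CPM in cKO 1 to 4, and 83.9, 77.9, 85.1 and 76.1 CPM in control 1 to 4. As with Ptch1, cKO 1 to 3 stood above every control and cKO 4 was low, here the lowest of all 8 libraries. The log2 fold change was 0.11 ± 0.10 (SE, 95% interval -0.10 to 0.32) with an adjusted p of 0.646 by edgeR. Without cKO 4 it was 0.22 with an adjusted p of 0.0817, a setting under which the genes called over all genes also numbered 1421 in place of 817.

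Gli1 (chromosome 10, 127329882 to 127341974) encodes an activator that is itself switched on by the pathway. It was low in this tissue, with 49, 29, 10 and 29 reads in cKO 1 to 4, and 36, 13, 21 and 11 reads in control 1 to 4. In CPM these were 3.84, 2.38, 1.17 and 2.23 in cKO, and 2.33, 1.11, 1.697 and 0.91 in control, so the genotypes overlapped. The log2 fold change was 0.67 ± 0.38 (SE, 95% interval -0.14 to 1.48) and did not pass, with an adjusted p of 0.408 by edgeR. Most of Gli1 is overlapped by the antisense gene Gm47200, so its counts are uncertain where strand was not used.

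Gli2 (chromosome 1, 118834132 to 119053619) encodes the main activator of Hedgehog targets. It had 28.0, 25.5, 24.9 and 20.9 CPM in cKO 1 to 4 (213 to 357 reads), and 15.0, 12.5, 13.01 and 16.9 CPM in control 1 to 4 (146 to 232 reads). Every cKO library was above every control library, with a gap between 20.9 CPM in cKO 4 and 16.9 CPM in control 4. The means were 24.8 ± 2.94 CPM in cKO and 14.3 ± 2.03 CPM in control (SD, n = 4 each). This is a 1.73-fold higher level in cKO, a log2 fold change of 0.79 ± 0.12 (SE, 95% interval 0.52 to 1.06) with an adjusted p of 0.00296 by edgeR, and 108 of the 12694 genes had a p as small or smaller. Leaving out each library in turn gave log2 fold changes of 0.72 to 0.88 with adjusted p-values of 0.00138 to 0.0146.

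Other measures moved with the genotype in the same libraries. Xist, which is made in female cells, had 34.6 to 86.3 CPM in all cKO libraries, and 61.4 CPM in control 1 but at most 1.28 CPM in controls 2 to 4. With log2 Xist as a covariate the Gli2 log2 fold change was 0.70 ± 0.20 (SE) with an adjusted p of 0.149. Control 1, the control whose Xist lay in the range of the cKO libraries, had 15.0 CPM of Gli2, below every cKO library. It is a single library, and the parts of genotype and of Xist in the Gli2 difference cannot be told apart. With the summed level of the endoderm markers, whose genotypes did not overlap, as a covariate it was 0.71 ± 0.28 (SE) with an adjusted p of 0.684, and 27 genes of 12694 passed in that fit. Of the 9 neural crest markers 3 were tested and 2 fell, namely the mesenchyme factors Twist1, with 7.74 ± 1.26 CPM in cKO and 14.7 ± 2.19 CPM in control (SD, without overlap, adjusted p = 0.00359 by edgeR), and Alx1, with 0.70 to 1.31 CPM in cKO and 2.02 to 3.62 CPM in control (adjusted p = 0.00721 by edgeR). That list summed to 59.5 to 78.0 CPM in cKO and 68.9 to 109 CPM in control, with Foxd3 at 0 in every library and Sox10 at 0.16 to 1.29 CPM in cKO and 0.26 to 2.13 CPM in control. All 8 erythroid markers had log2 fold changes below 0 (median -0.81) and none passed (3 had an unadjusted p under 0.05), and they summed to 1209 to 5646 CPM in cKO and 4338 to 12638 CPM in control, with the highest value of every gene in control 4. The part of these cells in the Gli2 difference was not tested. With the erythroid genes left out the adjusted p of Gli2 was 0.00279 by edgeR, and with control 4 left out it was 0.00141. Leaving out those genes cannot show the part of the cells, because their other transcripts stay in the counts. With both cKO 1 and control 3 left out (also chosen after seeing the data) the Gli2 log2 fold change was 0.68 ± 0.15 (SE) with an adjusted p of 0.0460.

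Gli3 (chromosome 13, 15463235 to 15730026) encodes the paralogue that acts chiefly as a repressor when no ligand is present. It had 27.2, 32.6, 26.7 and 23.0 CPM in cKO 1 to 4, and 24.95, 21.2, 21.5 and 27.4 CPM in control 1 to 4. The genotypes overlapped, since control 4 was above 3 of the 4 cKO libraries. The log2 fold change of 0.20 ± 0.12 (SE, 95% interval -0.06 to 0.46) did not pass, with an adjusted p of 0.442 by edgeR.

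The Gli genes were then compared within each library, where the scaling between libraries cancels. Per kilobase of merged exons, Gli2 stood at 1.44, 1.09, 1.30 and 1.27 times Gli3 in cKO 1 to 4, and at 0.84, 0.82, 0.84 and 0.86 times Gli3 in control 1 to 4. By merged exons Gli2 was thus the more abundant of the pair in every cKO library and Gli3 in every control library. The log2 ratio was 0.59 higher in cKO (two-sided exact permutation test over 70 groupings, p = 0.0286, the smallest they can give, and 0.0381 adjusted over the 4 measures compared, n = 4 each). With the longest transcript as the length this log2 difference was the same, but Gli3 was then above Gli2 in cKO 2. Which gene of the pair is the more abundant in a library therefore depends on the length used.

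Of the summed level of the 3 Gli genes per kilobase, Gli2 made up 52.1 ± 2.42% in cKO and 42.8 ± 1.37% in control (SD, n = 4 each). Gli3 made up 41.1 ± 3.26% in cKO and 50.9 ± 1.29% in control. Neither overlapped between the genotypes (exact permutation p = 0.0286, adjusted 0.0381 for both). Gli1 made up 6.85 ± 2.7% in cKO and 6.25 ± 2.48% in control and did not pass (exact permutation p = 0.771, adjusted 0.771). The shares and the Gli2 over Gli3 ratio were not among the planned tests. They use the same Gli2 reads as the fold change above and are no separate evidence for it. The shares are also tied to each other by their sum, so the 4 measures are not independent. A lower Gli3 share is therefore not a lower Gli3 level, which had a log2 fold change of 0.20.

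**Figure D3:**
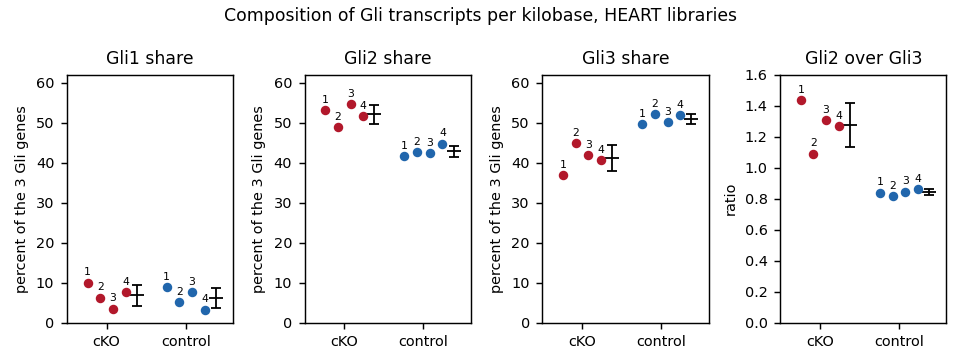
Share of each Gli gene in the summed CPM per kilobase of Gli1, Gli2 and Gli3 (first 3 panels) and Gli2 over Gli3 (right panel) in each 'HEART' library, cKO at the left and control at the right. Points are libraries, black bars the mean ± SD of 4. Gli2 over Gli3 lies between 1.09 and 1.44 in cKO and between 0.82 and 0.86 in control.

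The sequences just upstream of Gli2, which rose, and of its paralogue Gli3, which did not pass, are shown because this pair carries the difference in composition. They are the 250 bases before the RefSeq start site in GRCm38.p6, 5′ to 3′ on the strand of the gene, at chr1:119053620-119053869 (minus strand) and chr13:15463473-15463722 (plus strand). Capitals mark GGGTGG or its complement CCACCC, the inner bases of the GLI consensus TGGGTGGTC.
Gli2: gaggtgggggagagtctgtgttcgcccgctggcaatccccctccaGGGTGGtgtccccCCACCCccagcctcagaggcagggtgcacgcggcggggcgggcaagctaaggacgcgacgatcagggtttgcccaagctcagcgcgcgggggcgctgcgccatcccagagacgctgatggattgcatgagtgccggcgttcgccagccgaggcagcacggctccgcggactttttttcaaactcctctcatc
Gli3: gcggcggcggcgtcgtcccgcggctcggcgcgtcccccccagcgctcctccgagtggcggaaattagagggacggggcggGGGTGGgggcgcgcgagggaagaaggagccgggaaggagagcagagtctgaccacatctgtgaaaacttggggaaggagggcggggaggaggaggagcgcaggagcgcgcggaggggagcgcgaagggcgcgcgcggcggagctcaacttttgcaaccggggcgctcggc
Gli2 held 2 such matches and Gli3 held 1. The inner bases, searched on both strands, occur in 28.1% of 32851 upstream regions of the same length, and in 4 of the 7 members with a RefSeq entry (Gli2, Gli3, Hhip and Smo). The whole consensus occurs in 0.225% of the regions and in none of the 7. GC content was 67.2% for Gli2 and 72.8% for Gli3, against a median of 52.4% over all regions. A match is a run of letters and was not tested as a binding site.

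The genes whose 'HEART' pattern over the 8 libraries was closest to Gli2 were sought among 10444 genes with a mean of at least 5 CPM, by the root mean square difference of log2 CPM centred on each gene's own mean. The nearest was Id4, an inhibitor of helix-loop-helix factors, at 0.09 on the log2 scale, with 11.7 to 14.3 CPM in cKO and 6.22 to 8.67 CPM in control. It was followed by Cd248 (endosialin, 0.12), Rnft1 (a RING finger membrane protein, 0.12), Ttc7 (0.13) and Ddc (aromatic amino acid decarboxylase, 0.13). Of the other members the nearest was Ptch1 at 0.30, followed by Gli3 at 0.31, against a median of 0.45 over the genes searched. A likeness of this kind includes the difference between genotypes, which the 5 nearest genes shared in direction, with log2 fold changes of 0.57 to 0.99.

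Between members, levels in 'HEART' were compared per kilobase of merged exons. In control Smo was highest at 12.699 ± 0.94 CPM per kilobase, followed by Sufu at 10.5 ± 0.57 and Gas1 at 8.84 ± 1.34 (SD, n = 4 each). Well below came Ptch1 at 2.54 ± 0.18, Gli3 at 2.48 ± 0.31 and Gli2 at 2.09 ± 0.30 CPM per kilobase. Gli1, Shh and Hhip closed the order at 0.30 ± 0.13, 0.24 ± 0.37 and 0.14 ± 0.03 CPM per kilobase. Smo, Sufu and Gas1 were thus at higher levels in the heart tube than the ligand gene or the target genes Ptch1, Gli1 and Hhip. Among control libraries the ranges of neighbours were apart between Smo and Sufu, between Gas1 and Ptch1 and between Gli2 and Gli1, and overlapped for the other 5 pairs. In cKO Gli2 was at 3.61 ± 0.43 CPM per kilobase, above Ptch1 at 3.14 ± 0.75 and Gli3 at 2.85 ± 0.41. With the longest transcript as the length the control order was the same, whereas in cKO Ptch1, at 4.29, was above Gli2, at 3.74 CPM per kilobase.

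The rest of the pathway was read from 67 further genes in 5 lists. Of the 60 that were tested in 'HEART', 1 rose and 4 fell, or 8.33%, against 6.44% of all genes, and their median log2 fold change was 0.04. Leaving out single libraries gave 1 to 9 calls. It was 1 without cKO 2 and also 1 without control 1, 2 without cKO 1, 3 without control 2, 3 without control 4, and 9 without cKO 4.

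Among 6 tested genes of other ligands and ligand release, 1 fell. Scube1 (chromosome 15, 83604999 to 83725021) belongs to a family of secreted proteins that help release lipid-modified ligand. It had 20.7, 19.3, 12.5 and 12.4 CPM in cKO 1 to 4, and 32.3, 33.1, 33.5 and 24.3 CPM in control 1 to 4, without overlap. The log2 fold change was -0.92 ± 0.17 (SE, adjusted p = 0.0082 by edgeR), and leaving out single libraries gave -1.06 to -0.79 with adjusted p-values of 0.00329 to 0.0331. With the endoderm marker sum as a covariate the log2 fold change was -1.14 ± 0.36 (SE) with an adjusted p of 0.512, in the fit in which 27 genes passed. Of the other ligands, Dhh had 1.88 to 2.54 CPM in cKO and 2.56 to 3.92 CPM in control and did not pass (adjusted p = 0.317 by edgeR), and Ihh was at 0 in every cKO library and at most 0.49 CPM in control.

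None of 5 other receptor and co-receptor genes passed in edgeR's test (2 had an unadjusted p under 0.05). The smallest p belonged to Gpc3, a glypican that competes for ligand, with 565 to 608 CPM in cKO and 497 to 556 CPM in control (log2 fold change 0.18 ± 0.06, SE, adjusted p = 0.142 by edgeR). It was followed by Boc, a co-receptor, with 6.44 to 9.25 CPM in cKO and 4.93 to 7.76 CPM in control (0.41 ± 0.18, SE, adjusted p = 0.262 by edgeR). Lrp2, a large endocytic receptor named after its values were seen, had 53.7 CPM in control 4 and 2.59 to 7.84 CPM in the other 7 libraries.

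Between SMO and the GLI factors, 1 of 20 genes fell. Btrc, the substrate-binding part of the ubiquitin ligase through which GLI proteins are processed, had 40.9, 40.9, 51.4 and 44.6 CPM in cKO 1 to 4, and 53.7, 53.0, 53.7 and 56.2 CPM in control 1 to 4. Its groups did not overlap, but the change was small (log2 fold change -0.29 ± 0.08, SE, adjusted p = 0.0788 by edgeR), and the call was lost when cKO 1, cKO 2 or any 1 control library was left out (adjusted p up to 0.234). The 20 genes, which include the protein kinase A subunit genes Prkaca, Prkacb and Prkar1a, ranged over log2 fold changes of -0.45 to 0.22.

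Of 18 genes of the primary cilium and its transport, 1 rose and 1 fell. Cc2d2a, a transition zone gene, had 26.8, 26.9, 28.1 and 26.0 CPM in cKO 1 to 4, and 17.9, 24.3, 20.4 and 17.5 CPM in control 1 to 4 (log2 fold change 0.43 ± 0.11, SE, adjusted p = 0.0438 by edgeR). Inpp5e, a ciliary phosphoinositide phosphatase, had 20.5, 18.1, 19.78 and 18.7 CPM in cKO 1 to 4, and 25.9, 23.8, 21.98 and 23.8 CPM in control 1 to 4 (-0.31 ± 0.09, SE, adjusted p = 0.0821 by edgeR). Neither overlapped between genotypes. Leaving out single libraries took the adjusted p to at most 0.144 for Cc2d2a (lost without cKO 1, cKO 2 or control 1) and 0.231 for Inpp5e (lost when any library other than control 3 was left out).

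Of 11 tested genes known to respond to Hedgehog signalling in some tissue, 1 fell. Tbx2, a T-box repressor of chamber differentiation, had 35.8, 33.3, 34.8 and 36.0 CPM in cKO 1 to 4, and 57.5, 40.1, 43.3 and 64.7 CPM in control 1 to 4. Its cKO libraries were all below the lowest control, and the log2 fold change was -0.56 ± 0.13 (SE) with an adjusted p of 0.0329 by edgeR. The call was lost without cKO 2 (adjusted p = 0.108 by edgeR) or control 1 (0.119). Mycn, Ccnd1, Ccnd2, Foxf1, Sox9 and Bmp4 were among the 10 that did not pass. With log2 Xist or the endoderm marker sum as a covariate none of Btrc, Cc2d2a, Inpp5e and Tbx2 passed (adjusted p of 0.149 to 0.966 by edgeR), in fits in which 218 and 27 genes of 12694 did. With Xist the log2 fold changes were -0.27 for Btrc, 0.52 for Cc2d2a, -0.44 for Inpp5e and -0.68 for Tbx2. With the endoderm marker sum they were -0.23 for Btrc, 0.38 for Cc2d2a, -0.09 for Inpp5e and -0.35 for Tbx2.

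**Figure D4:**
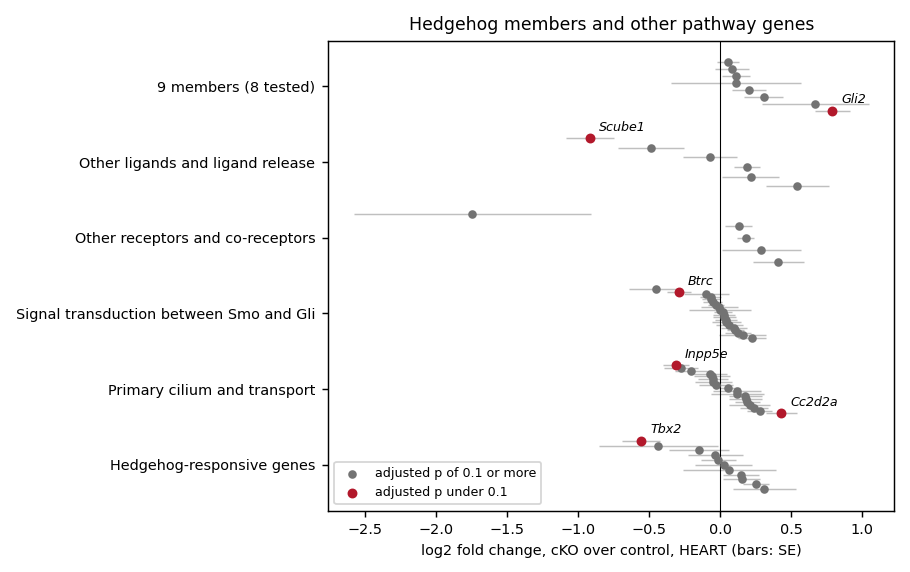
Log2 fold change of cKO over control in 'HEART' for the 8 members tested and 60 other pathway genes, by list, with SE bars. Red points passed an adjusted p of 0.1 (edgeR). Gli2 is the only member that passed, and 5 other genes did, of which Scube1 is the furthest from 0 at -0.92.

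In 'SHF' the authors' values for all 9 members lay close together between the genotypes. The authors' table gave Shh 9.21 FPKM in cKO against 9.09 FPKM in control. Of the receptors, Ptch1 had 66.3 FPKM in either genotype, and Smo 61.4 FPKM in cKO against 60.8 FPKM in control. These are the most abundant members in this dissection. Gas1 had 32.3 FPKM in cKO against 30.6 FPKM in control, Hhip 3.69 FPKM in cKO against 4.05 FPKM in control, and Sufu 20.2 FPKM in cKO against 20.99 FPKM in control. Of the Gli genes, Gli1 had 6.01 FPKM in cKO against 5.78 FPKM in control, Gli2 12.4 FPKM in cKO against 11.5 FPKM in control, and Gli3 29.9 FPKM in cKO against 29.3 FPKM in control. None of the 9 was past a 1.5-fold difference, against 1.96% of 11030 genes with a mean of at least 1 FPKM. Chd7 itself had 18.9 FPKM in cKO against 28.2 FPKM in control. At 1.49-fold lower, the deleted gene was not past 1.5-fold either.

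The log2 ratios of the members, cKO over control, ran between -0.14 (Hhip) and 0.11 (Gli2), and their median size was 0.056, against 0.058 over all 11030 genes. Gli2 was the member furthest above 0, at 1.08-fold, a size that 73.6% of the genes did not reach. Gli2 over Gli3 was 0.41 in cKO and 0.39 in control, and Gli2 made up 25.7% of the summed Gli FPKM in cKO and 24.6% in control. The Gli2 difference seen in 'HEART' had a log2 fold change of 0.79, but the dissections were made with different library kits and share embryos, and the difference between their effects was not tested. Foxa1, highest with Shh in 'HEART', had 5.55 FPKM in cKO 'SHF' against 6.26 FPKM in control, and Epcam 41.2 FPKM in cKO against 47.0 FPKM in control.

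**Figure D5:**
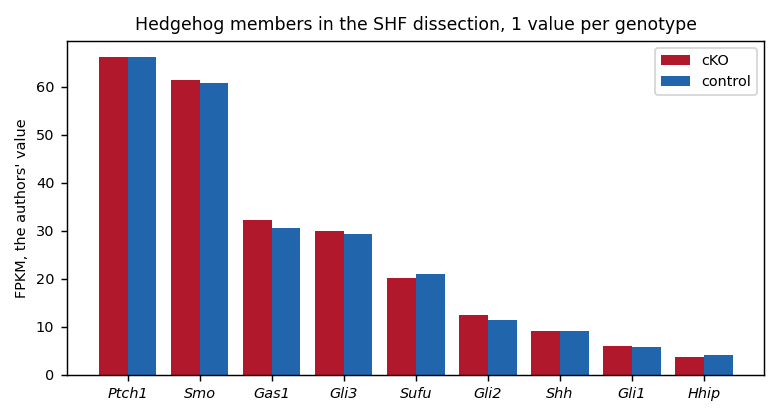
FPKM of the 9 members in 'SHF' as the authors' table gives them, 1 value per genotype, cKO at the left of each pair. There are no error bars because the table holds no values per sample. Every pair lies within 1.10-fold, with Ptch1 at 66.3 FPKM in both genotypes.

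The order of the members also differed from 'HEART', though per-length units and kits differ and the orders are only set side by side. In 'SHF' the order was Ptch1, Smo, Gas1, Gli3, Sufu, Gli2, Shh, Gli1 and Hhip, high to low, in both genotypes. Relative to 'HEART' control, Ptch1 stood above Smo rather than below Gas1, and Shh stood directly above Gli1 rather than below it. The order of Gli1 and Shh in 'HEART' control is not settled, since their libraries overlapped (0.18 to 0.47 and 0 to 0.79 CPM per kilobase).

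Of the other pathway genes in 'SHF', 3 of 60 at or above the minimum were past 1.5-fold, against 1.96% of all 11030 genes. All 3 were in the list of Hedgehog-responsive genes. Foxf1, a forkhead gene of splanchnic mesoderm, had 17.5 FPKM in cKO against 10.6 FPKM in control, and Osr1, a zinc finger gene of the posterior second heart field, 8.42 FPKM in cKO against 4.30 FPKM in control. Both were chosen by the study for in situ hybridization from these samples, so their direction in these values is not independent evidence. By that hybridization the study reported higher expression of both in the posterior second heart field of cKO embryos. Tbx2 had 4.04 FPKM in cKO against 6.21 FPKM in control, lower in cKO as in 'HEART'. Markers of other cells differed in the same table, where 62 of all 11030 genes were past 1.5-fold higher and 154 past 1.5-fold lower. Of 8 cardiomyocyte markers 5 were past 1.5-fold lower in cKO (median log2 ratio -1.02), among them Myh6, a cardiac myosin gene, with 1.03 FPKM in cKO against 2.89 FPKM in control. Of 5 septum transversum and proepicardium markers Wt1 was past 1.5-fold higher in cKO (1.79 FPKM in cKO against 0.90 FPKM in control). Tcf21 and Sema3d of that list were lower in cKO (log2 ratios of -0.283 and -0.051), and its median log2 ratio was 0.22. Of 5 sclerotome and somite markers at or above the minimum Pax3 and Tcf15 were past 1.5-fold higher in cKO (1.83-fold and 1.70-fold). Meox2 and Pax1 of that list were lower in cKO (log2 ratios of -0.517 and -0.038), and its median log2 ratio was 0.12. The part of such cells in the values of Foxf1, Osr1 and Tbx2 was not tested. The target genes among the members, Ptch1, Gli1 and Hhip, differed by at most 1.10-fold. In the other lists the ratios furthest from 1 included those of Scube2 and Hhat (1.34-fold and 1.11-fold higher in cKO), Boc (1.26-fold higher), Gpr161 (1.08-fold higher), Stk36 (1.07-fold lower), Ofd1 (1.10-fold higher) and Sdccag8 (1.10-fold lower), none past 1.5-fold.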

How the data were processed

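RNA from single embryos had been sequenced as poly(A)-selected ('HEART') or rRNA-depleted ('SHF') libraries. Samples were grouped by their titles. The deposited 'HEART' table holds raw counts per gene, made by the authors with STAR 2.7.2b on mm10 and featureCounts 1.6.4 after fastp 0.20.1, strand setting not given in the sources used here. The deposited 'SHF' table holds 1 FPKM value per genotype on merged loci. For 'SHF' the study's methods describe alignment by STAR 2.5.0b with HTSeq counting and DESeq2. The columns have instead the layout of Cuffdiff output, which the methods do not mention, so how the FPKM were made is uncertain and their unit was taken from the layout. Columns of the authors' own fold changes, p-values and q-values, and 8 normalised columns per sample, were not used. In 'HEART' 27 rows carried dates in place of symbols.

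Counts were fitted with edgeR 4.0.16 in R 4.3.3 (filterByExpr, TMM, glmQLFit, glmQLFTest, cKO against control with no covariate, threshold 0.1), and SE is the log2 fold change over the root of F. DESeq2 1.42.0, limma 3.58.1 (voom), RLE and total-count scaling, other filters, leaving out each library, a replicate block, a random block by embryo code prefix and the covariates named above were alternatives. The code was tested on simulated data. P-values measure the spread between single embryos. 'SHF' ratios need a mean of at least 1 FPKM and a value above 0 in both genotypes. 'SHF' loci joining several genes (Ccnd1, Inpp5e and Mgrn1 among the lists) were left out. Positions and lengths are from GENCODE M21 and upstream sequences from RefSeq (GRCm38.p6), where 7 of the 9 members matched. By rule the genes named were the 9 members and the 5 genes most like Gli2. From each other list the rule gave those called, or else the 2 with the smallest p. In 'SHF' it gave the 2 per list furthest from equal. Other genes were named outside this rule in 'HEART', among them Dhh, Ihh, Lrp2, Prkaca, Prkacb, Prkar1a, Mycn, Ccnd1, Ccnd2, Foxf1, Sox9, Bmp4 and Cplane1. A gene that this rule gives is not reported here. Members and lists were chosen with earlier results of these data known.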

Additional observations from a re-analysis of the deposited data

Results flagged for a closer look

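Among 17 named genes in 34 groups of 4 'HEART' libraries, 2 groups had a library far from the other 3, where chance flags about 1 in 20 groups. Shh in cKO 1 was at 1.41 CPM (18 reads), against 0 reads in the other 3 cKO libraries. Scube1 in control 4 was at 24.3 CPM, against 32.3 to 33.5 CPM in the other 3 control libraries, and this lowest control was still above the highest cKO library at 20.7 CPM.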

How the results depend on the processing

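Gli2 was called under 20 of 22 alternatives, with log2 fold changes of 0.68 to 0.88 (adjusted p of 1.93e-06 to 0.684), and Scube1 under 21 of 22. The number of members called, 1, became 3 without cKO 4 (Ptch1 and Sufu added) and stayed at 1 without each other library. It was 0 with log2 Xist and 0 with the endoderm marker sum as a covariate, and 2 with the sum of 5 epithelial genes (chosen after seeing the data). The 5 other pathway genes called became 1 with Xist, 0 with the endoderm sum, 3 at an adjusted p of 0.05, 2 with both cKO 1 and control 3 left out (chosen after seeing the data), and 1 to 9 without single libraries. All genes called, 817, became 218 with Xist, 27 with the endoderm sum, 349 with both libraries left out, and 500 to 1421 without single libraries. By total counts 360 of 838 calls were higher, against 446 of 817.

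Values that changed sign did not pass in either setting: Smo was -0.035 with Xist and -0.010 with both libraries left out, Sufu -0.12 with the endoderm sum, Gas1 -0.12 with Xist and -0.012 to 0.16 without single libraries. Hhip was -0.17 by limma-voom, -0.18 with the embryo code prefix as a block, -0.43 with both libraries left out and -0.56 to 0.42 without single libraries. The causes were not tested.

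Same-numbered libraries of the genotypes deviated from their genotype means with correlations of -0.06 to 0.21. Those numbered 3 share an embryo code prefix (correlation 0.21), as do those numbered 4 (-0.06), and the labels do not say what the prefix marks. A replicate block gave 917 calls, 1 member (Gli2, adjusted p = 0.00561) and 5 other pathway genes, Inpp5e being lost (adjusted p = 0.109) and Cplane1, a cilium gene, gained (0.091). In 'SHF' the 216 genes past the fold were 344 at a mean of 0.5 FPKM, 54 at 5 FPKM, 623 at the lower and 79 at the higher fold limit tried. The 3 other pathway genes were 7 and 0 at these limits, and the members 0 under each of the 8 'SHF' alternatives. Shh, Gli1 and Hhip are limited by their few reads.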
